A study of Mus musculus with 8 samples.

Results

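Protocadherins are the largest family of cadherins, single-pass membrane proteins with calcium-binding extracellular repeats. The 70 mouse genes whose symbol begins with Pcdh were taken from the 27179 genes of the expression table, and all lines carrying these symbols were taken from the 4 lists of m6A peaks. They fell into the alpha cluster (14 genes), the beta cluster (22 genes), the gamma cluster (22 genes) and the non-clustered protocadherins (12 genes). The rule used symbols alone and no measured value.

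C2C12 cells, a mouse myoblast line, were compared as dividing cells kept in growth medium (GM) and as cells that had spent 3 days in differentiation medium (3d DM), in which they form myotubes. GM cells were collected at 50% confluence in high glucose DMEM with 10% fetal bovine serum. 3d DM cells had passed 90% confluence before the change to DMEM with 2% horse serum, so cell density and serum cannot be told apart. Dishes were coated with type 1 rat tail collagen in both states. Each state had 2 input libraries, which gave the RNA values, and 2 libraries immunoprecipitated (IP) with an m6A antibody, which gave the peaks. The labels number the replicates but do not say whether they were separate cultures, so the spread between these libraries may be technical. With the deposited values, the RNA p-values rest on a spread pooled over genes of like level, not on that of a gene's own replicates.

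In the alpha and gamma clusters, each gene has its own large variable exon, which holds the extracellular part and is spliced to 3 constant exons used by all genes of that cluster. Genes of the beta cluster consist of a single coding exon and have no constant exons. Promoter choice in the clusters depends on CTCF, cohesin and DNA methylation, and the family is best known for giving single neurons a surface identity. The methylation of adenosine at position N6, m6A, is placed by the METTL3 complex, mostly on a short motif around the letters GGAC.

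Short stretches of sequence show where m6A peaks on Pcdh7 and Pcdh19 lay, and were chosen because their site carried a peak in at least 3 of the 4 lists. Sites of Pcdh1 and of clustered genes also met this rule. Their sequences are not printed, owing to where these genes lie in the genome. Coordinates and bases are of mm10 (GRCm38), the strand is that of the gene, and the capitals mark GGACT where the stretch that most lists covered holds it and otherwise GGAC, in each case the copy nearest to the middle of that stretch. The coding site of Pcdh19 holds GGACT once, at the very start of its stretch on the strand of the gene.
Pcdh7, first exon, peak in 4 lists, chr5:57719106-57719133, plus strand: tgctgaggatgcGGACcacgggatgggc
Pcdh7, first exon, peak in 3 lists, chr5:57719770-57719797, plus strand: caagcggcggctGGACgcgcctgagggt
Pcdh7, first exon, peak in 4 lists, chr5:57721167-57721194, plus strand: aaaatgacacagGGACcatttactccac
Pcdh19, first exon, coding, peak in 3 lists, chrX:133686781-133686809, minus strand: tgcatatgacccGGACTccggcagctttg
Pcdh19, first exon, 5′ UTR, peak in 3 lists, chrX:133688036-133688063, minus strand: ccccacgccctcGGACaccaacctcagc

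Over all sites, meaning lines of any list joined where they share a base on the same strand, windows of 101 bases at the middle of the best covered stretch were searched for GGACT and GGAC, the second of which includes the first. GGAC was found on the strand of the gene in 23 of 40 protocadherin windows (57.5%), beside 39.7% of 19497 windows of all genes. On the opposite strand these shares were 22.5% and 25.5%. The longer GGACT was found in 8 of the 40 windows (20%) and in 13.6% of all windows, and on the opposite strand in 7.5% and 8.59%. A match describes the letters of the window and is not a mapped methylated base.

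The RNA values are normalized signals that sum to nearly the same total in each library (12534657 to 12536233), and their depth is unknown. One identifier took 24.4% to 41.3% of each total, the highest share being in 3d DM replicate 1. The median log2 fold change (GM minus 3d DM) over the 11406 tested genes was 0.22, and it was -0.0032 after the libraries were rescaled by median-of-ratios factors. The states were checked against markers, and all 6 markers of differentiated muscle were higher in 3d DM and all 4 of cycling cells were higher in GM. The endothelial list was near 0, with sums of at most 1.5. The leukocyte list was low, with sums of 9.94 to 26.4, most of it Cd68. Of the 5 neuron markers, Rbfox3 was listed at 0 in every library and Snap25 and Syt1 did not exceed 2.21, while Tubb3 was at 1334 and 1785 in GM and at 486 and 778 in 3d DM, and Stmn2 at 1584 and 1169 in GM and at 424 and 298 in 3d DM.

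Of the 70 protocadherins, 21 were listed at 0 in every library, 37 were above 0 but under the minimum for testing, and 12 were tested. The minimum was a value of 25.1, which is 2 cpm of the column total, in at least 2 of the 4 libraries. With limma and Benjamini-Hochberg adjustment over all genes, 7 of the 12 had an adjusted p under 0.05, beside 17.0% of all tested genes. Of these, 6 were beta genes higher in 3d DM, the direction of 7.01% of all tested genes, and the other was Pcdh19, higher in GM as were 9.96%. Of these beta genes, 5 passed the minimum only through their 3d DM libraries, so their call in that direction is partly set by the minimum. When 3 libraries had to reach the minimum, as in the methods of the study, 7 protocadherins were tested and 1, Pcdhb17, was called.

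**Figure D1:**
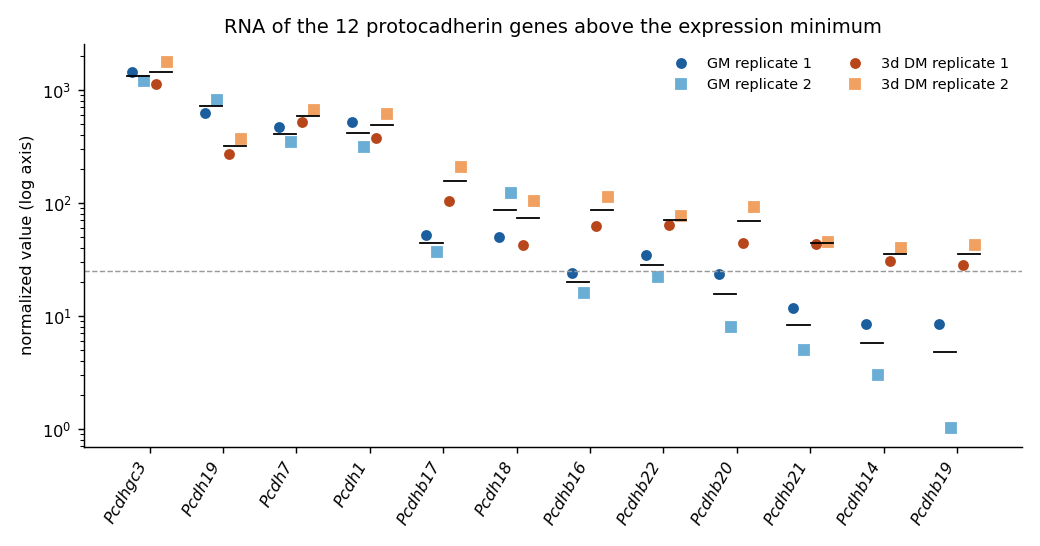
RNA of the 12 tested protocadherins, as the normalized value in each input library (log axis). Points are libraries (blue GM, orange 3d DM), black bars are means of 2 libraries, and the dashed line is the minimum of 25.1. Both 3d DM libraries lie above both GM libraries for the 7 beta genes and Pcdh7, and below them for Pcdh19.

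In the beta cluster, most RNA was that of the genes at the downstream end, and it was higher in 3d DM. The cut at Pcdhb14 was drawn where the values of these data begin to reach the minimum for testing, so it is not independent of them. The 9 genes from Pcdhb14 to Pcdhb22 summed to 176.3 and 101.4 in the GM libraries and to 405.0 and 669.1 in the 3d DM libraries, a mean of 139 ± 52.9 (SD, n = 2) against 537 ± 187 (SD, n = 2). The ratio of the means was 3.87, and it was 4.49 after rescaling. For Pcdhb1 to Pcdhb13, at far lower sums, these ratios were 4.54 and 5.34, so the rise was not particular to the downstream end. For each of the 9, both 3d DM values were above both GM values. Genes with a mean of at least 10 over the 4 libraries numbered 9 in the beta cluster, and 9 of 9 had this order. It was held by 17.4% of the 12288 genes of the whole table with such a mean, and the opposite order by 36.3%. Of the 9, Pcdhb14, Pcdhb15, Pcdhb18, Pcdhb19 and Pcdhb21 had GM means of 4.78 to 8.34. These reached the mean of 10 only through 3d DM, so their order is partly set by the rule. As neighbouring close copies, the 9 were also not shown to be independent cases. Over the clusters and the non-clustered genes together, 18 protocadherins had a mean of at least 10. Of these, 11 had both 3d DM values above and 1, the non-clustered Pcdh19, had both GM values above.

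Pcdhb17 had the highest values of the cluster, 51.6 and 37.1 in GM, against 104.6 and 206.3 in 3d DM. The groups did not overlap, and the log2 fold change was -1.72 ± 0.53 (SE; limma, adjusted p = 0.00933). Pcdhb16 was at 24.2 and 16.1 in GM and at 62.1 and 112.1 in 3d DM, with a log2 fold change of -2.03 ± 0.59 (limma, adjusted p = 0.00547). Pcdhb20 was at 23.3 and 8.04 in GM and at 44.4 and 93.0 in 3d DM, a log2 fold change of -2.14 ± 0.62 (limma, adjusted p = 0.00544). In all 3 genes the highest library was 3d DM replicate 2 and the lowest was GM replicate 2.

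Of the called beta genes, only Pcdhb17 reached the minimum for testing in GM, so Pcdhb16 and Pcdhb20 also passed it only through 3d DM. The remaining called beta genes had still lower means in GM. Pcdhb21 was at 11.7 and 5.03 in GM and at 43.1 and 44.8 in 3d DM, with a log2 fold change of -2.36 ± 0.68 (limma, adjusted p = 0.00472). Pcdhb14 was at 8.49 and 3.02 in GM and at 30.7 and 39.9 in 3d DM (-2.54 ± 0.72, adjusted p = 0.00398 by limma). Pcdhb19 was at 8.55 and 1.01 in GM and at 28.4 and 42.3 in 3d DM (-3.02 ± 0.75, adjusted p = 0.000654 by limma). Their GM values lay far below the minimum for testing. Pcdhb22 was at 34.8 and 22.1 in GM and at 63.9 and 76.8 in 3d DM, and its log2 fold change of -1.31 ± 0.58 did not pass with limma (adjusted p = 0.114). After rescaling it passed (-1.53, adjusted p = 0.0265).

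Pcdhb18, with 9.59 and 2.02 in GM, against 20.6 and 28.1 in 3d DM, and Pcdhb15, with 4.13 and 7.02 against 7.29 and 25.8, each reached the minimum in 1 library. They were not tested, although their groups did not overlap. The upstream 13 genes, Pcdhb1 to Pcdhb13, were not tested either. Their highest value in any library was 9.91, and together they summed to 10.7 and 4.02 in GM and to 24.9 and 41.8 in 3d DM. Pcdhb7, Pcdhb12 and Pcdhb13 had the highest means among them, and Pcdhb1 and Pcdhb3 were listed at 0 throughout. Without any minimum, the fit called none of the 7 beta genes above (adjusted p 0.392 to 0.590, 2 with an unadjusted p under 0.05), and called Pcdhb11, which was named after its values were seen. Pcdhb11 was listed at 0 in both GM libraries and was at 6.22 and 5.76 in 3d DM.

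**Figure D2:**
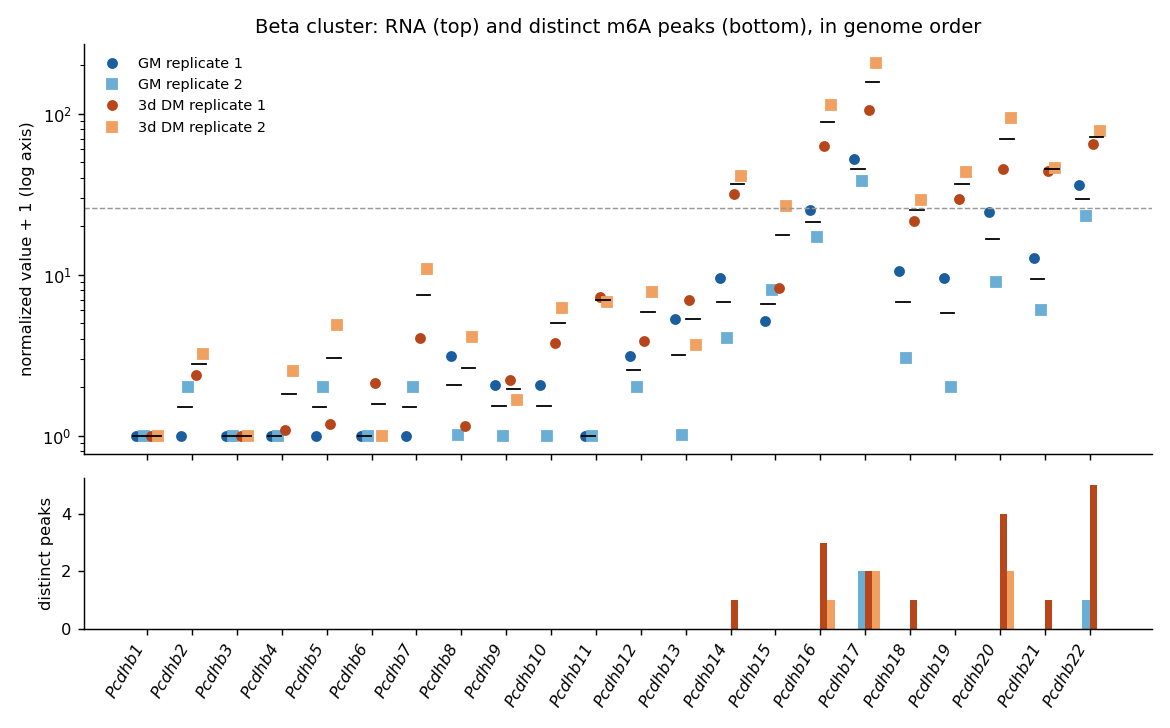
The 22 beta genes in genome order. Top, normalized value + 1 in each input library on a log axis (points; bars are means of 2 libraries; the dashed line is the minimum for testing). Bottom, distinct m6A peaks in each list. Values above the line begin at Pcdhb14, and 3d DM replicate 1 carries most of the peaks.

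Each library was then left out in turn. All 7 tested beta genes kept a fold change below 0 when any single library was left out. This was fixed in advance, since both 3d DM values were above both GM values in each. The number called was 6 without GM replicate 1 and 0 without GM replicate 2, 3d DM replicate 1 or 3d DM replicate 2, where 6, 6 and 3 of them had an unadjusted p under 0.05 and the lowest adjusted p by limma was 0.0886, 0.106 and 0.133. Beta genes are close copies of each other, and how reads that match several of them were counted is not given in the sources used here, so the split between neighbours is uncertain.

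Sums of marker lists are set here beside the beta RNA, and not all of them moved with it. The differentiated muscle markers summed to 5114 and 1163 in GM and to 95442 and 132768 in 3d DM, so GM replicate 1 was above GM replicate 2 for these and for the beta sum alike. Tubb3 and Stmn2, the neuron markers tested, were called higher in GM, the list of 5 summing to 2919 and 2954 in GM and to 912 and 1077 in 3d DM. The 3 fibroblast markers summed to 528 and 53.3 in GM and to 478 and 753 in 3d DM. Of these, Dcn was called higher in 3d DM, a call not held after rescaling, and Lum was near 0. The part of these cells or of the degree of differentiation in the beta values was not tested. In bulk RNA, a smaller share of cells of a kind and less RNA per cell cannot be told apart.

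In the gamma cluster, nearly all RNA was that of Pcdhgc3, one of the C-type genes that lie next to the constant exons. Its values were 1455 and 1201 (GM) against 1139 and 1759 (3d DM). The groups overlapped, and the log2 fold change was -0.10 ± 0.42 (SE; limma, adjusted p = 0.926). Pcdhgc3 held 93.7% and 94.8% of the gamma sum in GM and 93.9% and 93.7% in 3d DM. The other 21 gamma genes lay between 0 and 22.6, with medians of 1.72 to 3.16 in the 4 libraries, and Pcdhga10 and Pcdhgb4 were listed at 0 in every library.

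Among the gamma genes under the minimum, Pcdhga1 was at 10.6 and 3.02 in GM and at 22.6 and 21.1 in 3d DM. Pcdhga6 was at 6.29 and 6.02 in GM and at 10.4 and 15.6 in 3d DM. In both the 3d DM values were the higher ones, as in the downstream beta genes, but neither was tested. Pcdhgb1 was at 20.1 and 9.04 in GM and at 8.28 and 20.3 in 3d DM, with full overlap. How reads in the constant exons were assigned to single gamma genes is not given in the sources used here, and this could change every value of the cluster.

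The peak lists named every gamma gene. Lines were deposited for Pcdhga1 to Pcdhga12, Pcdhgb1, Pcdhgb2, Pcdhgb4 to Pcdhgb8 and Pcdhgc3 to Pcdhgc5, 215 lines over the 4 lists, and of these 204 touched an exon that members share. The 3 constant exons lie on the plus strand of chromosome 18 of mm10, at 37825021 to 37825079 (59 bases), 37833265 to 37833353 (89 bases) and 37839903 to 37841873 (1971 bases, which holds the end of the coding sequence and the 3′ UTR). Of the 22 gamma genes listed, 21 had RNA values under 25.1 in every library, and Pcdhga10 and Pcdhgb4, listed at 0 in the RNA, had 9 lines each. A line on a constant exon therefore does not show which gamma gene carried the mark. Peaks within an exon of 1 gamma gene alone were listed for Pcdhgc3 in all 4 lists. For Pcdhga1, Pcdhga6 and Pcdhgb1 such peaks were listed in 3d DM replicate 1 and in no other list.

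**Figure D3:**
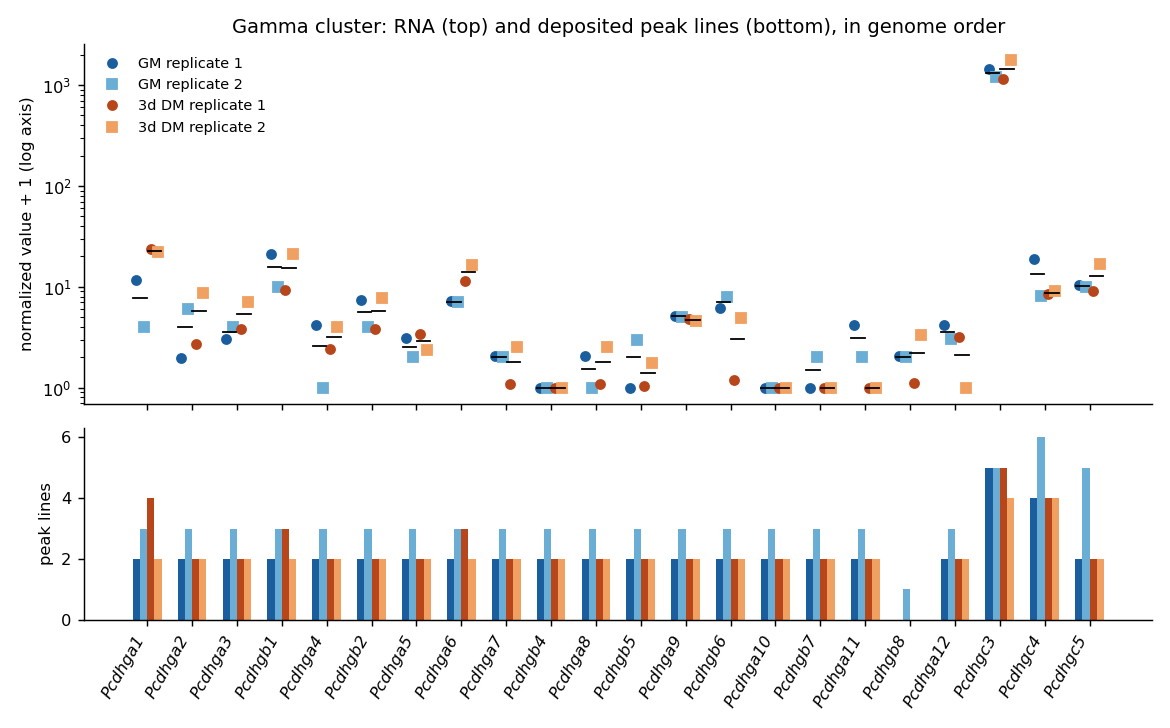
The 22 gamma genes in genome order. Top, normalized value + 1 in each input library on a log axis (points; bars are means of 2 libraries). Bottom, peak lines deposited under each symbol in each list. Pcdhgc3 alone is at 1139 or above in every library, while lines are spread over all symbols, Pcdhgb8 having 1 line in 1 list.

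The alpha cluster was hardly detected. Of its 14 genes, 12 were listed at 0 in every library, and the other two, Pcdha9 and Pcdha10, were at 0 in GM and reached 2.32 at most in 3d DM. No peak list named an alpha gene.

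Among the non-clustered genes, Pcdh19, whose product is known to pair with N-cadherin in adhesion, was higher in GM. Its values were 631.6 and 808.8 (GM) against 272.9 and 366.3 (3d DM). The groups did not overlap, and the log2 fold change was 1.17 ± 0.45 (SE; limma, adjusted p = 0.0495). This call was at the edge of the threshold and was lost in 9 of 13 alternatives. It was lost, among others, with the minimum in 3 libraries (adjusted p = 0.0589) and without any 1 of the 4 libraries (adjusted p = 0.0847 to 0.649), with a log2 fold change of 0.96 or more in each case. After rescaling the log2 fold change was 0.95 (limma, adjusted p = 0.0398).

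Pcdh7, whose product is known to bind the protein phosphatase inhibitor SET, was at 471.1 and 346.2 in GM and at 518.6 and 659.3 in 3d DM. The 3d DM values were the higher ones in each library, but the log2 fold change of -0.53 ± 0.44 did not pass with limma (adjusted p = 0.506). It passed after rescaling (-0.76 ± 0.18, adjusted p = 0.0335). Pcdh1, an adhesion protein of epithelia, was at 522.7 and 315.1 in GM and at 378.3 and 608.6 in 3d DM (-0.24 ± 0.45, adjusted p = 0.816 by limma). Pcdh18 was at 50.1 and 123.4 in GM and at 42.1 and 104.4 in 3d DM (0.24 ± 0.54, adjusted p = 0.851 by limma). For Pcdh1 and Pcdh18 the replicates of each state lay further apart than the means of the states.

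The remaining non-clustered genes were not tested. Pcdh20 was at 13.6 and 15.05 in GM and at 0.039 and 0.75 in 3d DM, and it was the one other non-clustered gene with its GM values above. Pcdh10 was at 0 in GM and at 2.40 and 1.35 in 3d DM, and Pcdh15 did not exceed 1.22. Pcdh8, Pcdh9, Pcdh11x, Pcdh12 and Pcdh17 were listed at 0 in every library. These, Pcdh10, Pcdh15, the 2 alpha genes and the 2 beta genes listed at 0 were named after their values were seen.

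Levels can be compared between genes only per length of exon, and here the length that no other member holds was used. For gamma genes this takes reads in the constant exons as not counted, which is not known. Pcdhgc3 has 4687 exon bases, of which 2568 are its own. If reads in the constant exons were counted to it, its values per kb below are too high. On this scale, the mean normalized value per kb was 517 in GM and 564 in 3d DM for Pcdhgc3. Pcdh19 followed in GM with 69.6 and fell behind in 3d DM, where it was at 30.9. Pcdh1 was at 46.7 and 54.98, Pcdh7 at 30.9 and 44.6, and Pcdhb17 at 13.6 and 47.5 per kb in GM and 3d DM. Pcdhb17 thus stood below Pcdh7 in GM and beside it in 3d DM, a description of means over 2 libraries with no test.

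For m6A, 403 lines on protocadherins made 40 sites. Protocadherin genes with at least 1 peak, by symbol, numbered 25 and 27 in GM, against 31 and 26 in 3d DM (exact permutation test, two-sided, p = 0.667; 2 libraries against 2 allow no p under 0.333). When gamma lines on constant exons were left out of the count of genes, they numbered 5 and 6 in GM, against 14 and 6 in 3d DM. Distinct peaks, merged within each list, numbered 27 and 20 in GM, against 41 and 16 in 3d DM (exact permutation test, p = 1). The high count was that of 3d DM replicate 1 alone, and without it the mean of GM exceeded the remaining 3d DM list by 7.5 peaks. All genes together had 14275 and 12254 distinct peaks in GM, against 14330 and 10902 in 3d DM.

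Of the 12 tested protocadherins, 11 had a peak in at least 1 list, beside 76.2% of tested genes, and 3 had one in all 4 lists, beside 42.6%. Of the 40 sites, 7 were called in all 4 lists, beside 30.6% of the sites of all genes. Sites of a single list numbered 19, of which 16 were of 3d DM replicate 1 (12.9% of all sites were of that list alone) and 3 of GM replicate 1. Sites called in both 3d DM lists and in no GM list numbered 3 (2.72% of all sites) and lay on Pcdhb16 and Pcdhb20. A single site, on Pcdh1, was called in both GM lists and in no 3d DM list (3.83% of all sites).

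Distinct beta peaks numbered 0 and 3 in GM, against 17 and 5 in 3d DM, an order without overlap that gave the smallest possible p of the exact permutation test (0.333). The beta genes with a peak numbered 0 and 2 in GM, against 7 and 3 in 3d DM. Every beta peak lay on a gene from Pcdhb14 to Pcdhb22, but not every one of these had a peak. Pcdhb19 and Pcdhb15 had none in any list, although Pcdhb19 had higher RNA values in 3d DM than Pcdhb18, which had one. Both sites of Pcdhb17 were listed in GM replicate 2 and in both 3d DM lists, with fold enrichments of IP over input of 12.5, 4.89 and 6.68 at the first and of 3.60, 5.44 and 16.7 at the second, in this order of libraries. Pcdhb22 had 5 sites, of which 1 was in GM replicate 2 and 3d DM replicate 1 and the others were in 3d DM replicate 1. Pcdhb14, Pcdhb18 and Pcdhb21 had 1 site each, in 3d DM replicate 1. A peak can be called only where input and IP reads are enough, and the part of RNA level in these lists was not tested.

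Pcdh7 carried peaks over its large first exon, which holds the extracellular part, and the lists label them as coding or, for some transcripts, as 5′ UTR. A site at chr5:57718926-57719526 was called in all 4 lists, with fold enrichments of 7.29 and 17.2 in GM and of 3.0 and 4.73 in 3d DM. The groups did not overlap, and the log2 difference was 1.57 ± 0.55 (SE; limma, unadjusted p = 0.0129, adjusted p = 0.999), so it did not pass over the 5976 sites of all genes. A second site at chr5:57720392-57722246 was at 5.83 and 7.30 in GM and at 6.0 and 2.66 in 3d DM (log2 difference 0.71 ± 0.50, adjusted p = 0.999 by limma). The lines behind these 4 folds lay in different parts of the long second site, that of GM replicate 2 ending at 57721422 and that of 3d DM replicate 1 beginning at 57721468. Between both sites, a site at chr5:57719602-57719946 was called in both GM lists and in 3d DM replicate 1, at fold enrichments of 4.59, 4.50 and 4.91. The peaks of 3d DM replicate 2, whose list was the shortest over all genes, covered 138 bases of the second site, and those of the other lists 1239 to 1421.

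Pcdh19 had 6 sites, none of them in 3d DM replicate 2. A coding site at chrX:133686527-133686827 had fold enrichments of 3.15 and 4.38 in GM and of 4.54 in 3d DM replicate 1, and the site in the 5′ UTR at chrX:133687907-133688207 had 5.25 and 4.11 in GM and 5.82 in 3d DM replicate 1. At both sites the fold of 3d DM replicate 1 was the highest of the 3. The site in the 3′ UTR was listed in GM replicate 1 and 3d DM replicate 1. Pcdh18 had 1 site, at its stop codon, in GM replicate 1 alone.

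**Figure D4:**
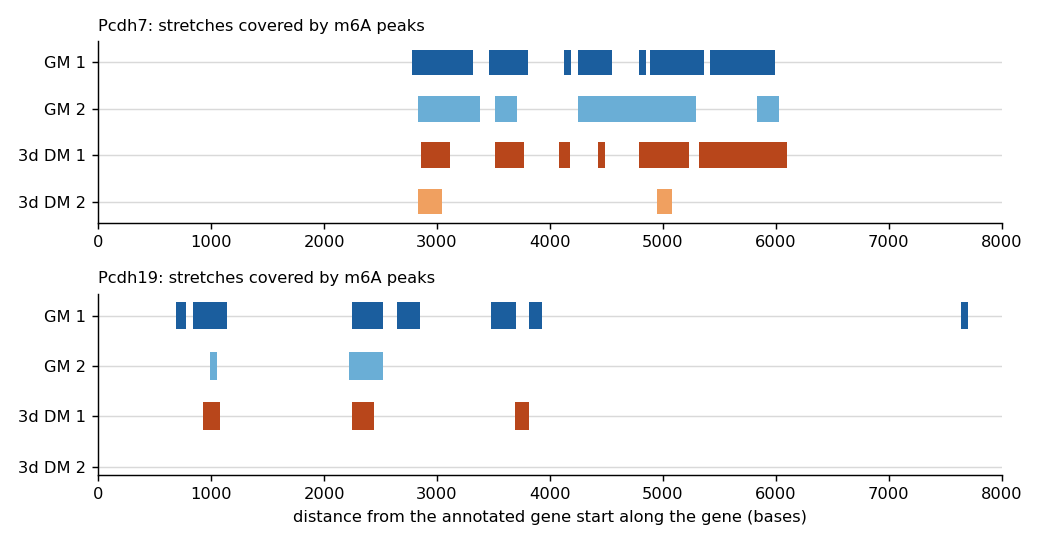
Stretches of Pcdh7 (top) and Pcdh19 (bottom) covered by m6A peaks in each of the 4 lists, by distance in bases from the annotated start of the gene. Bars are merged peak lines, and 1 site of each gene, in a 3′ UTR, is beyond the axis. 3d DM replicate 2 has 2 short bars on Pcdh7 and none on Pcdh19.

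Pcdh1 had 5 sites, and 2 of them were called in all 4 lists. The first of these, made of spliced lines that chain several exons between 38192195 and 38203400 on the minus strand of chromosome 18, was at 5.81 and 6.26 in GM and at 5.64 and 6.26 in 3d DM. At each site the fold is that of the line with the lowest p-value in the list, and here these lines did not cover the same bases, ending at 38197765 and 38197828 in GM and beginning at 38202773 and 38202944 in 3d DM. The second, at the stop codon and 3′ UTR between 38189175 and 38189817, was at 6.12 and 7.43 in GM and at 7.26 and 3.55 in 3d DM. There the line of GM replicate 1 ended at 38189354 and that of 3d DM replicate 2 began at 38189534, so they shared no base. Neither site differed beyond the spread of the replicates (limma, log2 differences 0.021 ± 0.47 and 0.41 ± 0.51, adjusted p = 0.999).

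The 3 sites that touch the gamma constant exons were called in all 4 lists. The first was made of spliced lines, and lines of Gm42416 also joined it. The lines with the lowest p-value were of Pcdhgc3 and ran from its own exon into constant exons. They covered 568 to 1374 bases, most of them in the exon of Pcdhgc3 alone, and that of 3d DM replicate 1 ended at 37833324, within the second constant exon. This first site had fold enrichments of 4.31 and 5.26 in GM and of 3.66 and 3.20 in 3d DM (log2 difference 0.48 ± 0.40). The second, in the 3′ UTR at 37840139 to 37840800, had 3.52 and 3.67 in GM, against 2.88 and 3.28 in 3d DM (0.23 ± 0.37). The third, at the end of the 3′ UTR at 37841691 to 37841873, had 3.19 and 1.63 in GM, against 2.07 and 2.29 in 3d DM (0.067 ± 0.36). All 3 had an adjusted p of 0.999 by limma. Over the 7 shared sites, both GM folds were above both 3d DM folds in 3, beside 21.3% of the shared sites of all genes, and the reverse order occurred in 0, beside 9.12%. None of the 5976 sites was called by limma (208 had an unadjusted p under 0.05, 1 of them on a protocadherin).

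**Figure D5:**
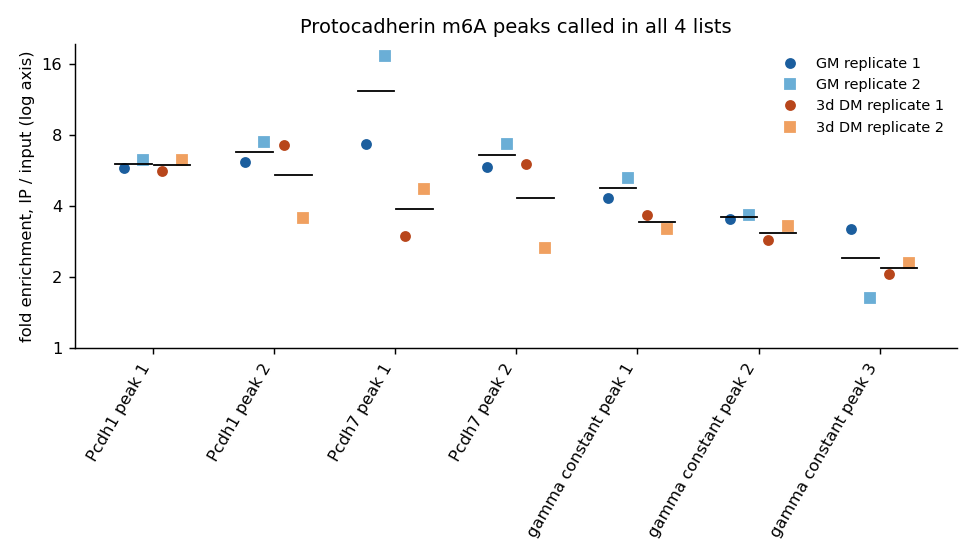
m6A fold enrichment (IP over input, log axis) at the 7 protocadherin sites called in all 4 lists. Points are libraries and bars are means of 2 libraries. The GM and 3d DM points are apart for Pcdh7 peak 1 and for the gamma constant peaks 1 and 2, and overlap at the other sites. The folds of gamma constant peak 1 come from lines that lie mostly in the exon of Pcdhgc3 alone.

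Among related genes, 7 of 16 classical and related cadherins were tested and 3 were called, all higher in 3d DM (7.01% of all tested genes). They were Cdh13, an anchored cadherin without an intracellular part (log2 fold change -2.62, adjusted p = 4.50e-08), Cdh23 (-2.53, adjusted p = 0.000151) and Cdh11 (-2.40, adjusted p = 0.00499), by limma. Cdh11 was at 5.17 and 9.02 in GM and at 28.8 and 56.6 in 3d DM. It passed the minimum only through 3d DM, so its call in that direction is partly set by the minimum. The median log2 fold change of the 7 was -1.42, beside 0.22 of all tested genes, and 5 were called after rescaling (23.2% of all tested genes). Of the FAT, Dachsous and Celsr cadherins 2 were tested, and 0 were called by limma at an adjusted p under 0.05, or at an unadjusted one.

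Of 16 chromatin regulators of the cluster, 15 were tested and 1 was called, beside 17.0% of all tested genes. Smchd1, a chromosome structural protein known to repress clustered protocadherins, was higher in GM, with 832 and 989 against 301 and 493 in 3d DM (log2 fold change 1.23 ± 0.44, adjusted p = 0.0332 by limma). The median of the 15 was 0.76, and 3 were called after rescaling, all higher in GM, beside 23.2% of all tested genes in either direction. Of 19 intracellular partners 17 were tested and 3 were called, again beside 17.0%. Cyfip2 of the WAVE complex (-3.13, adjusted p = 2.31e-05 by limma) and the kinase Fyn (-1.51, adjusted p = 0.0032) were higher in 3d DM, and Set (1.51, adjusted p = 0.00231), whose product binds that of Pcdh7, was higher in GM. Cyfip2, at 13.8 and 4.03 in GM and at 102.0 and 54.4 in 3d DM, also passed the minimum only through 3d DM.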

How the data were processed

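The input and m6A immunoprecipitated libraries were grouped by the labels, and none was left out. The authors aligned reads to mm10 with HISAT2 2.1.0, called peaks with exomePeak per sample, and handled gene counts with edgeR. The counter, annotation and multi-mapping rule are not given in the sources used here. The deposited RNA signal is a table labelled as normalized by the trimmed mean of M values. Trimmed-mean factors computed on this table still ranged from -0.36 (3d DM replicate 1) to 0.21 (GM replicate 1) on a log2 scale. The main fold changes were therefore not shown to be corrected in that way. The deposited peak lists hold, for each transcript with a peak, a p-value and a fold enrichment (ratio of IP to input). Symbols were matched by Entrez identifier (93.0% of the table, 98.7% of tested genes), and 100% of the lines whose transcript is in GENCODE M21 (95.5%) lay within its exons.

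RNA and fold enrichment were tested with limma 3.58.1 (R 4.3.3) on log2 values, with a pseudocount of 1 for RNA, an intensity trend and Benjamini-Hochberg adjustment over all features, at an adjusted p of 0.05. With the deposited values, RNA standard errors followed the trend rather than a gene's own replicates. At each site, the fold of the line with the lowest p-value was used. Pairs of low RNA values recur over genes within a state, so the 2 replicates of a low gene may not be independent. Neither reads nor depth could be recovered, so no counting interval is given.

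Members with an RNA test or a peak are named, those called or with a peak in all lists with every value. Of the other members at most 5 were named by their mean, and of other lists at most 4 called genes. The members and lists were chosen with earlier results of these data known. The limma step and the merging of peaks were tested on simulated data. Python 3.11.15, numpy 2.4.6, pandas 2.3.3 and matplotlib 3.10.9 were used. Alternatives were other minimums, pseudocounts of 0.1 and 4, 2 rescalings, a replicate block, no trend, stricter peaks, another merging of lines, the highest fold of a site, median centring and each replicate left out.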

Additional observations from a re-analysis of the deposited data

How the results depend on the processing

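The 7 called protocadherins became 1 with the minimum in 3 libraries, 1 with none and 1 with it in every library, where 7, 70 and 6 members were tested, and 0 to 6 with a replicate left out. Without GM replicate 2, 3d DM replicate 1 or 3d DM replicate 2 the count was 0 (6, 7 and 4 had an unadjusted p under 0.05). Both rescalings gave 9, and both pseudocounts gave 7. The calls over all genes moved as well, from 1936 to 1436, 154 and 1249 with these minimums, to 1252 without GM replicate 1, 874 without GM replicate 2, 145 without 3d DM replicate 1 and 676 without 3d DM replicate 2, and to 2646 and 2676 with the rescalings. Replicate numbers mark no stated pairing, and 2 numbers are too few to show one (correlation of the deviations 0.29). With the replicate number as a block, 6 protocadherins were called and Pcdh19 was not (adjusted p = 0.216), and no other protocadherin lost its call. Such a block cannot move a mean difference (-2.5 genes with a peak, -5 distinct peaks), and by replicate number these differences had opposite signs (-6 and 1 genes, -14 and 4 peaks). Calls of genes that are not protocadherins were not compared under the block.

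GM minus 3d DM in genes with a peak went from -2.5 to 0 with peaks of p under 1e-05 and to between -5 and 0 with a replicate left out. In distinct peaks it went from -5 to 0.5 with p under 1e-05 and to between -17.5 and 7.5, the last without 3d DM replicate 1. Values that changed sign were those of members that had not passed. With a replicate left out, RNA log2 fold changes ran from -0.40 to 0.89 for Pcdh18 (below 0 without GM replicate 2 or 3d DM replicate 1, -0.40 each), from -0.41 to 0.21 for Pcdhgc3 (0.040 without GM replicate 2, 0.21 without 3d DM replicate 2) and from -0.61 to 0.12 for Pcdh1 (0.12 without GM replicate 2, 0.10 without 3d DM replicate 2). Log2 differences in fold enrichment ran from -0.42 to 0.55 at the third gamma constant site (-0.42 without GM replicate 1, -0.0061 without 3d DM replicate 1), from -0.11 to 0.93 at the second Pcdh1 site (-0.11 without 3d DM replicate 2) and from -0.054 to 0.097 at the first Pcdh1 site (-0.054 without 3d DM replicate 1, -0.032 without GM replicate 2). Medians set to 0 gave -0.039 at the third gamma constant site and -0.084 at the first Pcdh1 site, which was at -0.14 with the highest folds. The causes were not tested. At an unknown depth, a gene listed at 0 was not shown to be absent.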
